A study of Mus musculus with 16 samples.

Results

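The genes described here were 10 genes of the endoplasmic reticulum (ER) stress response, selected by symbol from the deposited table of mouse muscle: *Hspa5*, *Hsp90b1*, *Calr*, *Dnajb9*, *Herpud1*, *Xbp1*, *Atf4*, *Ddit3*, *Atf3* and *Trib3*. Each symbol had 1 row among the 26382 genes of the table, and all 10 rows passed the filter on low values. The RNA came from hamstring muscle of female C57BL/6 mice aged 8 to 10 weeks, in a model of myositis induced by recombinant histidyl-tRNA synthetase (HRS). Muscle was collected at day 14. The comparisons address how the genes differed between muscle that received the antigen and muscle that received the vehicle, phosphate-buffered saline (PBS).

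There were 16 libraries from 9 mice. The HRS leg group held the left legs of 5 mice (m862 to m866) given HRS at 3 to 5 mg/mL. The right legs of those 5 mice, given PBS, formed the contralateral PBS leg group. The PBS-only leg group held 4 legs, both legs of 2 mice (m867 and m868) that received PBS alone. The HRS-MBP group held 1 library from each of 2 mice (m860 and m861). Their titles name an MBP fusion protein at 2 to 3 mg/mL, whereas their treatment field gives HRS at 3 to 5 mg/mL, and their injected side is not stated. The written protocol describes bilateral injection of HRS, 100 uL in all, whereas the titles place HRS on the left and PBS on the right. The titles, and the treatment field where it names PBS, were followed because they separate the legs.

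The ER folds secreted and membrane proteins, and misfolded protein in it is sensed by IRE1, PERK and ATF6. IRE1 splices *Xbp1* mRNA, ATF6 is released as a transcription factor, and both raise chaperones and degradation factors. PERK phosphorylates eIF2alpha, which favours translation of *Atf4*, and ATF4 in turn can raise *Ddit3* (CHOP), *Atf3* and *Trib3*. In skeletal muscle the sarcoplasmic reticulum is a specialised ER that stores calcium, and ER stress genes have been described in inflamed muscle. Spliced and unspliced *Xbp1* cannot be told apart in values given per gene, and neither phosphorylation nor translation is measured by them.

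The deposited unit was a normalized count, which is proportional to the reads of a gene within a library and not corrected for gene length. The totals per library lay between 726797 and 1252358, and the step between low values implied a depth per library of 8.60 to 73.9 (in 1e6 reads), with 69.8% to 73.6% of low values lying on whole steps. Mitochondrial transcripts took 3.41% to 13.1% of the total. The HRS leg of m866 stood apart from the other HRS legs: on the leading principal component (77.3% of the variance) it lay at 2.84, against -65.4 or below in the other HRS legs and 37.9 or above in all PBS legs. The 7 marker genes of myofibres summed to 38601 to 156847 in the HRS legs, with m866 the highest, and to 112108 to 181863 in the contralateral PBS legs. Summed leukocyte markers reached 217 to 983 against 21.0 to 48.8, and macrophage markers 969 to 4891 against 83.5 to 243. Fibroblast markers reached 2414 to 24239 against 1090 to 2606, and plasma cell markers 131 to 406 against 7.14 to 32.6. In the HRS-MBP libraries plasma cell markers summed to 649 in m860 and 4136 in m861. The myofibre markers were present in every library, as the labelled tissue requires. In bulk muscle, a change in the number of cells of a type and a change in RNA per cell cannot be told apart, and the part of these cell types in the results below was not tested.

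The windows of 250 bases before the start of transcription are shown for the 5 genes in which a searched ER stress motif was found, because these genes moved in both directions. The sequences are those of RefSeq on GRCm38.p6, read 5′ to 3′ on the strand of the gene. The start is that of RefSeq, which differed from the gene models of the counted rows. The window of *Atf3* lay inside its counted gene (191170296 to 191218039). The counted genes of *Hspa5*, *Hsp90b1* and *Calr* began inside their windows, at 34771970, 86705509 and 84846934. The marked ERSE of *Hspa5* lay within its counted gene. They lie at chr2:34771840-34772089 (*Hspa5*, plus strand), chr10:86705445-86705694 (*Hsp90b1*, minus), chr8:84846932-84847181 (*Calr*, minus), chr8:94386179-94386428 (*Herpud1*, plus) and chr1:191183334-191183583 (*Atf3*, minus). Capitals mark the ERSE in *Hspa5*, *Hsp90b1* and *Calr*, the ERSE-II and the CARE core in *Herpud1*, and the CARE core in *Atf3*.
Hspa5: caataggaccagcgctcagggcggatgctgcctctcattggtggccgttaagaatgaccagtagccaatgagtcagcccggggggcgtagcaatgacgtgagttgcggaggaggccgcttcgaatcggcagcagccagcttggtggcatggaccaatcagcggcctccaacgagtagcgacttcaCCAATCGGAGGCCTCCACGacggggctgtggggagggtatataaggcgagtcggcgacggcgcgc
Hsp90b1: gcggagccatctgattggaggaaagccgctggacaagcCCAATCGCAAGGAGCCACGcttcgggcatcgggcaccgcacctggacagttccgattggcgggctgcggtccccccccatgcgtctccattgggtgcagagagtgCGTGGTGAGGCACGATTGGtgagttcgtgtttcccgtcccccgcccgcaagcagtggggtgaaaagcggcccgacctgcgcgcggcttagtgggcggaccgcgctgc
Calr: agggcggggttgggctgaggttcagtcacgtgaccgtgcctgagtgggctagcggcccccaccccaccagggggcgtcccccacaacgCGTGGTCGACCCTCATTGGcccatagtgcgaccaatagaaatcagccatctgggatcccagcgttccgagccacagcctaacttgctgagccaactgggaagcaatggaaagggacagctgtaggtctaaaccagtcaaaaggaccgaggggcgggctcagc
Herpud1: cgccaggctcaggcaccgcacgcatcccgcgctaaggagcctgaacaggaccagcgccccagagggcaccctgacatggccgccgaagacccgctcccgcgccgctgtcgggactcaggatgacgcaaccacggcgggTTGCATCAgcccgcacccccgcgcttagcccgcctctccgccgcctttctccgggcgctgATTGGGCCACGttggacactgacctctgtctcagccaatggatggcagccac
Atf3: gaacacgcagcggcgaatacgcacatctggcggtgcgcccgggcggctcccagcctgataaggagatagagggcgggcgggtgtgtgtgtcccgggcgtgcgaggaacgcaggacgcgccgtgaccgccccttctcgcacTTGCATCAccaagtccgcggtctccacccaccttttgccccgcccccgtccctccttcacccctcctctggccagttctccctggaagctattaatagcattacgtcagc

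The ER stress element (ERSE) was searched as CCAAT, 9 bases of any kind and CCACG, and ERSE-II as ATTGG, 1 base and CCACG. The unfolded protein response element (UPRE) core was searched as TGACGTGG, and the core of the composite element bound by ATF4 and C/EBP proteins (CARE) as TGATGNAA. Both strands were read, exact letters were required, and no match overlapped another in the windows shown. *Hspa5* held an ERSE 65 to 47 bases before the start. *Hsp90b1* held 2, at 212 to 194 and at 107 to 89 bases before the start, the latter on the opposite strand. *Calr* held 1 on the opposite strand, at 162 to 144 bases. Thus 3 of the 10 windows held an ERSE, against 37 of 32851 windows in the RefSeq table (0.113%). The motifs and the 10 genes were both chosen as parts of the ER stress response. The contrast with all windows is therefore a description, and it was not tested. ERSE-II was in 10 windows of all (0.0304%), *Herpud1* among them. The CARE core was in 3.45% of all windows and in those of *Herpud1* and *Atf3*, both on the opposite strand. The UPRE core was in 0.563% of all windows and in none of the 10. A match is a description of letters and not a measured binding site, and the absence of a match describes these windows only.

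Between the HRS leg and the contralateral PBS leg, the genes of the ER stress response did not move as a block. The ER chaperones *Hspa5*, *Hsp90b1* and *Calr* and the stress transcription factor *Atf3* were 1.42 to 1.98 times as high by the ratio of group means. *Dnajb9*, *Herpud1* and *Atf4* were at 0.652 to 0.685 times the contralateral level. *Xbp1*, *Ddit3* and *Trib3* did not pass the test. In all, 4 of 10 rose and 3 of 10 fell at an adjusted p below 0.05 (limma, Benjamini-Hochberg over 16414 genes), whereas 35.1% of all tested genes rose and 25.9% fell, so that the shares among the 10 lay near those of the background. With the added condition of an absolute log2 fold change above 1, 0 of 10 were called. Of all 16414 tested genes, 2781 (16.9%) were called higher and 1029 lower. Without that condition on size 7 of 10 passed, both at unadjusted p below 0.05 and with limma-voom after adjustment. Limma-voom called 1 on size as well. Of all tested genes, 65.4% had an unadjusted p below 0.05 with limma. With limma-voom 36.5% of all tested genes rose and 27.7% fell, and of 16414 genes 3212 were called higher and 1371 lower on size.

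**Figure D1:**
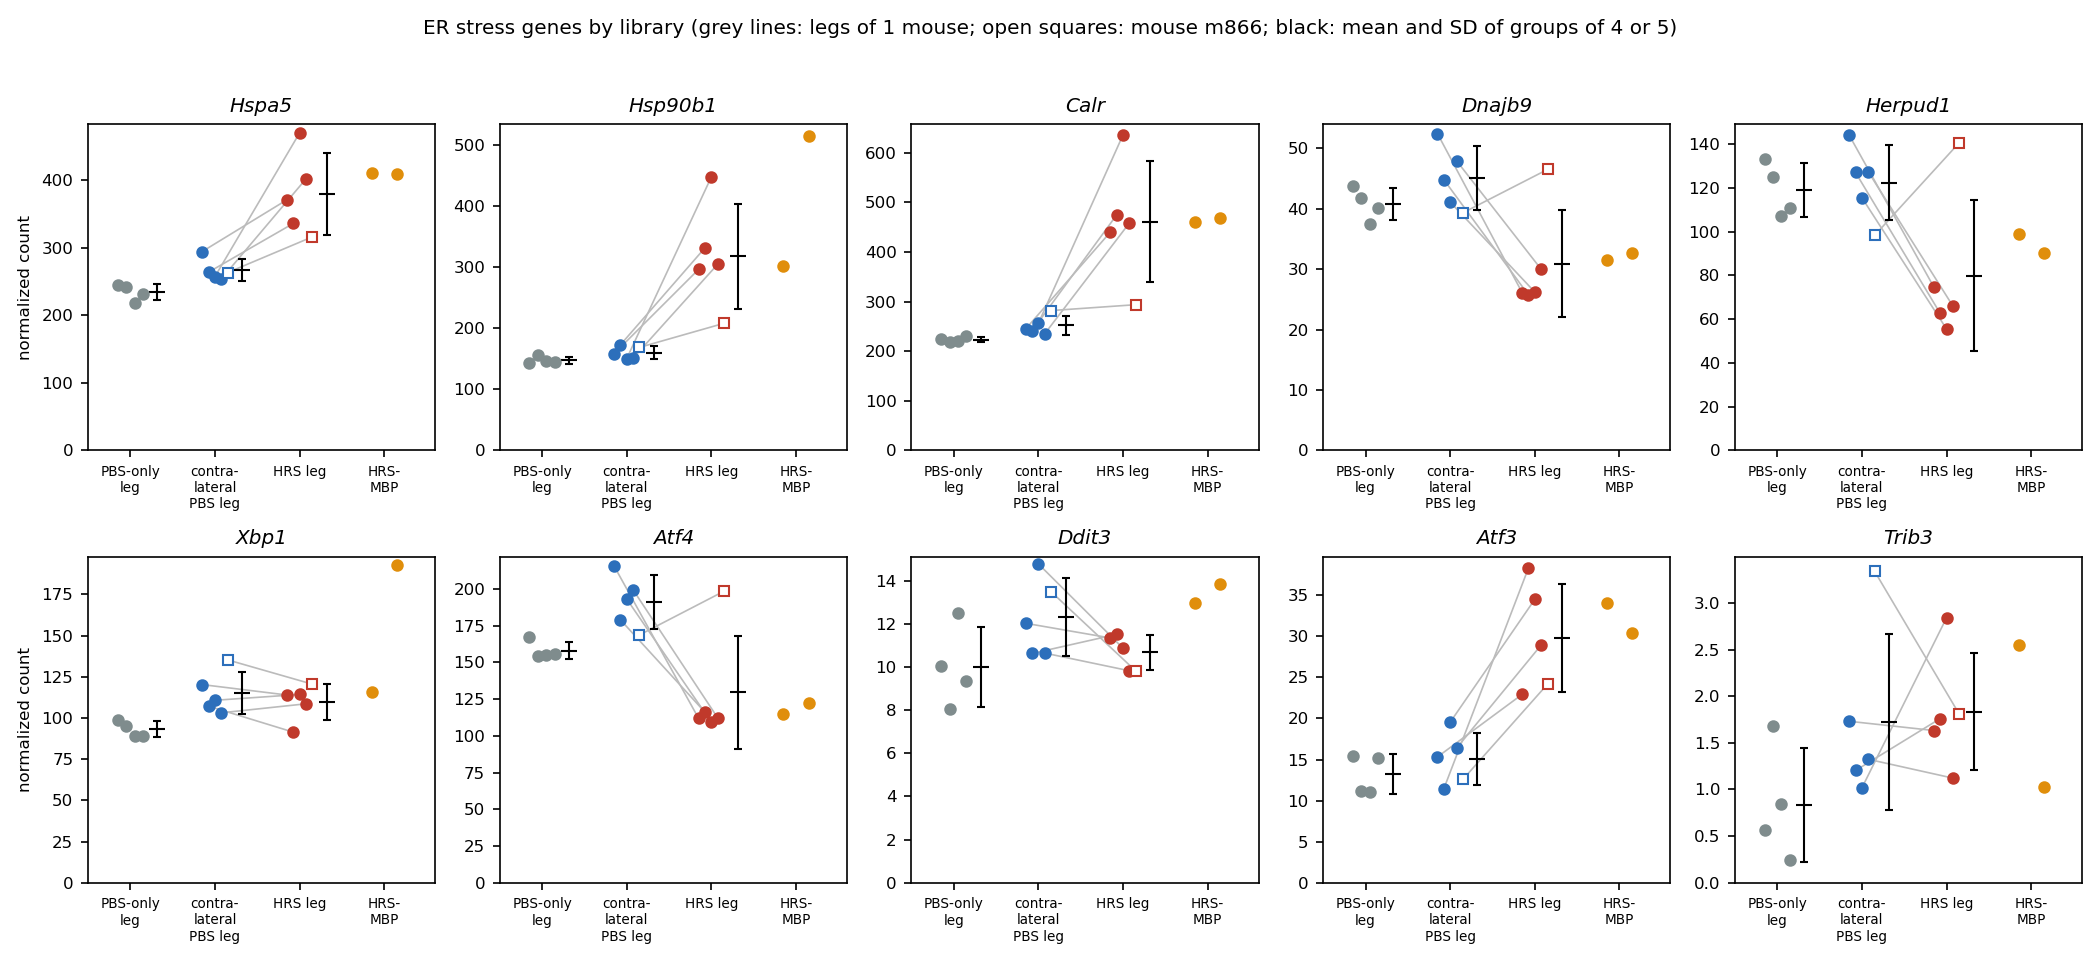
Normalized counts of the 10 genes (vertical axes, linear from 0) in each library by group; grey lines join the legs of 1 mouse, open squares are mouse m866, and black marks are the mean and SD of the groups of 4 or 5 libraries. *Hspa5*, *Hsp90b1*, *Calr* and *Atf3* lie higher in every HRS leg than in every PBS leg, whereas *Dnajb9*, *Herpud1* and *Atf4* lie lower in 4 HRS legs and not in m866. The share of all tested genes without overlap between groups was not counted.

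*Hspa5* encodes BiP, the ER Hsp70 chaperone that also holds the stress sensors inactive. Its normalized counts in the HRS legs of m862 to m866 were 371, 336, 469.7, 402 and 316. In the opposite legs, given PBS, they were 294, 264, 257, 254 and 263. The lowest HRS leg, that of m866, lay above the highest PBS leg, so that the groups did not overlap. *Hspa5* rose by 0.49 on the log2 scale (SE 0.110, adjusted p = 0.00172), from a mean of 266 ± 16.1 to 379 ± 60.6 (SD, n = 5 each). In the PBS-only legs it measured 245 and 241 in m867 and 219 and 232 in m868, below every contralateral PBS leg.

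*Hsp90b1* encodes GRP94, the Hsp90 chaperone of the ER lumen, which folds Toll-like receptors and integrins. Its HRS legs measured 297, 332, 448, 305 and 208. In the contralateral PBS legs it measured 158, 173, 150.4, 151 and 169, a narrow range below every HRS leg. The log2 fold change was 0.95 (SE 0.172, adjusted p = 0.000479), the steepest rise of the 3 chaperones, and it was 1.09 without the HRS leg of m866. On the annotation the gene overlaps 3 entries, a pseudogene on the other strand, a processed transcript and a miRNA, so that its counts carry some uncertainty.

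*Calr* encodes calreticulin, a lectin chaperone and calcium store of the ER and the sarcoplasmic reticulum. It measured 439.97, 475, 636, 458 and 294 in the HRS legs, and in the contralateral PBS legs 245, 241, 256, 235 and 282. The groups did not overlap, but in m866 the legs differed by 294 against 282 alone. *Calr* rose by 0.83 on the log2 scale (SE 0.153, adjusted p = 0.000512). Per kilobase of exon, *Calr* was the highest of the 10 genes in every group, at 159.9 normalized counts per kb in the HRS legs and 87.4 in the contralateral PBS legs.

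*Dnajb9* encodes ERdj4, a co-chaperone of BiP that is a known target of spliced XBP1. It measured 26.1, 25.7, 26.2, 30.0 and 46.5 in the HRS legs, and in the contralateral PBS legs 52.4, 44.8, 41.1, 47.9 and 39.3. The HRS legs of m862 to m865 were below every PBS leg, whereas that of m866 was inside the PBS range. *Dnajb9* fell by 0.57 on the log2 scale (SE 0.143, adjusted p = 0.00348). With every library scaled to equal totals the value was -0.16 (adjusted p = 0.118), and the call was lost.

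*Herpud1* encodes a membrane protein of the ER-associated degradation machinery that is strongly induced by ER stress in cultured cells. It measured 74.7, 62.6, 55.5, 66.0 and 141 in the HRS legs, and in the contralateral PBS legs 144, 127, 116, 127 and 98.3. In 4 HRS legs it was below every PBS leg, and in m866 it was close to the top of the PBS range. *Herpud1* fell by 0.69 on the log2 scale (SE 0.196, adjusted p = 0.00741). With mouse as a block in the 10 paired libraries the adjusted p was 0.0615, and the call was lost. An antisense gene overlaps it, and strand use in the counting is not stated.

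*Xbp1* encodes the transcription factor that IRE1 activates by splicing, and it is also required by plasma cells. It measured 114, 91.4, 114, 109 and 120.5 in the HRS legs and 120.2, 107, 111, 103 and 135 in the contralateral PBS legs. The groups overlapped almost wholly. The log2 fold change was -0.07 (95% interval -0.34 to 0.20, adjusted p = 0.644), and it was 0.35 with libraries scaled to equal totals and 0.07 with quantile normalization.

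*Atf4* encodes the transcription factor that is translated when eIF2alpha is phosphorylated. In the HRS legs of m862 to m865 it measured 112, 116, 109 and 112, and in that of m866 199. In the contralateral PBS legs it measured 216, 179, 193, 199.5 and 169. Those 4 HRS legs lay close together and below every PBS leg, and m866 lay among the PBS legs. *Atf4* fell by 0.60 on the log2 scale (SE 0.143, adjusted p = 0.00272), and with libraries scaled to equal totals the value was -0.18 (adjusted p = 0.0574).

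*Ddit3* encodes CHOP, a transcription factor that can drive cell death in prolonged ER stress. It measured 11.3, 11.5, 10.9, 9.83 and 9.82 in the HRS legs and 12.03, 10.6, 14.8, 10.6 and 13.5 in the contralateral PBS legs, with overlap. The log2 fold change was -0.19 (95% interval -0.45 to 0.07, adjusted p = 0.195). It was -0.53 and past the test with quantile normalization (adjusted p = 0.00225) and 0.21 with libraries scaled to equal totals. *Ddit3* overlaps *Mars* on the other strand and 2 further entries of the annotation, so that its counts are uncertain.

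*Atf3* encodes a stress-induced transcription factor that is also an immediate early gene in immune and muscle cells. In the HRS legs it measured 22.9, 38.3, 34.5, 28.9 and 24.2, and in the contralateral PBS legs 15.3, 11.4, 19.5, 16.4 and 12.6. Every HRS leg lay above every PBS leg, including that of m866. *Atf3* rose by 0.96 on the log2 scale (SE 0.170, adjusted p = 0.000385). The difference between the legs of m866, 0.92 on the log2 scale, was exceeded by that of 1 other mouse, m863, at 1.70.

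*Trib3* encodes a pseudokinase induced by ATF4 and CHOP that restrains AKT signalling. It was the lowest of the 10, with 1.63, 1.76, 2.84, 1.12 and 1.81 in the HRS legs and 1.73, 1.203, 1.02, 1.32 and 3.34 in the contralateral PBS legs. The groups overlapped fully, and the log2 fold change was 0.12 (95% interval -0.56 to 0.79, adjusted p = 0.764).

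Within the pairs of legs, 4 of 10 genes (*Hspa5*, *Hsp90b1*, *Calr* and *Atf3*) had their higher value on the HRS side in 5 of 5 mice, against 26.3% of all tested genes. None of the 10 was lower in 5 of 5 mice, against 8.97% of all tested genes. These counts depended on the scaling. With libraries scaled to equal totals, *Hsp90b1* and *Atf3* were higher in 5 of 5 mice and *Atf4* was lower in 5 of 5, m866 included (a ratio of 0.971), against 22.2% and 9.10% of all tested genes. *Hspa5* and *Calr* were then higher in 4 of 5 mice, with ratios of 0.991 and 0.860 in m866. With median-of-ratios scaling *Hspa5*, *Hsp90b1* and *Atf3* were higher in 5 of 5 mice, *Calr* in 4 of 5 (0.954 in m866), and 0 of 10 genes were lower in all. As deposited, the exact two-sided sign-flip test over the mice gave p = 0.0625 for each of *Hspa5*, *Hsp90b1*, *Calr* and *Atf3*, which is the smallest value that 5 pairs allow. For *Dnajb9*, *Herpud1* and *Atf4* the HRS leg was lower in 4 of 5 mice, and their exact sign-flip p-values were above that smallest value. The remaining mouse was m866 for all 3, with ratios of the HRS to the PBS leg of 1.18, 1.43 and 1.18. In the other 4 mice those ratios were 0.498 to 0.638 for *Dnajb9*, 0.480 to 0.518 for *Herpud1* and 0.518 to 0.648 for *Atf4*. The difference of *Herpud1* was thus nearly the same in m862 to m865, while that of *Hsp90b1* ranged from 1.87 to 2.98 times in these mice. The largest ratios of *Hspa5*, *Hsp90b1* and *Calr* (1.83, 2.98 and 2.48) were all in m864, whose HRS leg also had the lowest myofibre sum and the highest leukocyte and macrophage sums. Their smallest ratios (1.20, 1.23 and 1.04) were all in m866, whose HRS leg had the highest myofibre sum and the lowest leukocyte and macrophage sums among the HRS legs. The part of these sums in the chaperone levels was not tested. *Atf3* did not follow that order: its largest ratio, 3.35, was in m863.

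**Figure D2:**
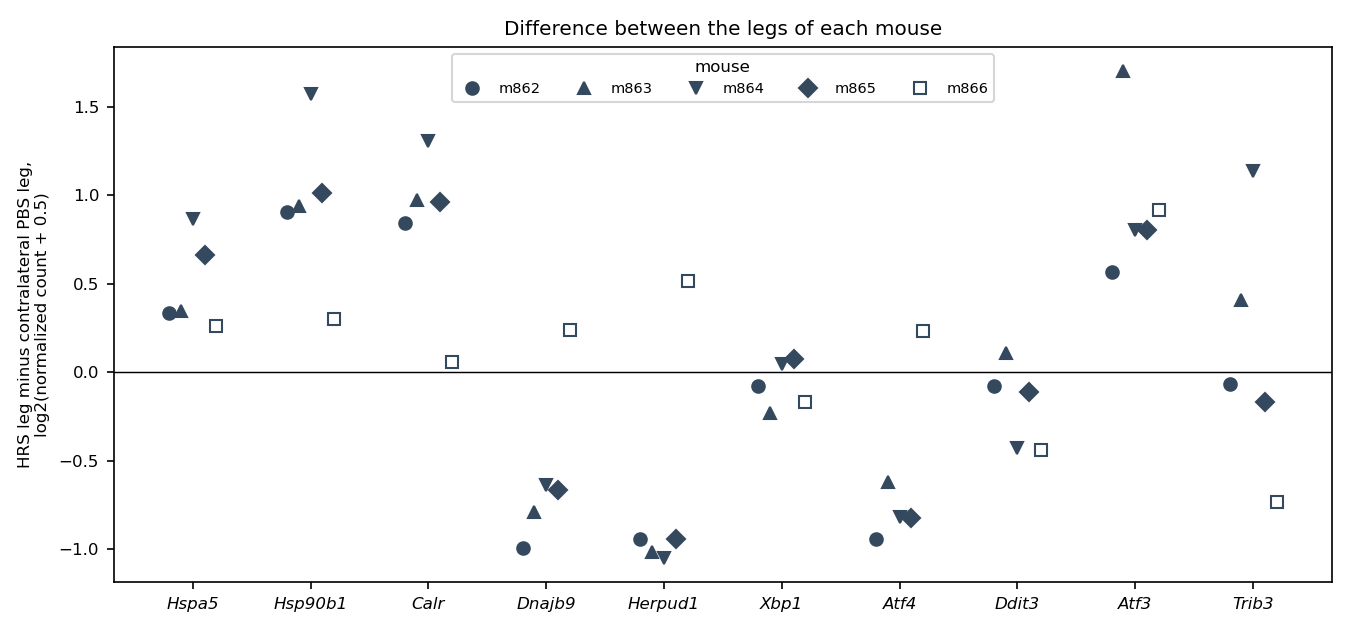
Difference between the HRS leg and the contralateral PBS leg of each mouse (vertical axis, log2 of normalized count plus 0.5) for the 10 genes as deposited, with 1 symbol per mouse. The open squares of m866 lie above 0 for *Dnajb9*, *Herpud1* and *Atf4*, where the other 4 mice lie below -0.62.

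Without the HRS leg of m866, the same number of genes passed the test, 4 higher and 3 lower, and the values were further from 0. Of all 16414 tested genes, 6274 then rose and 4955 fell. *Hsp90b1* then rose by 1.09 and *Atf3* by 1.03 on the log2 scale, so that 2 of 10 were called on size. In that fit 3257 of 16414 tested genes were called higher and 1598 lower. *Atf4* fell by 0.76, *Dnajb9* by 0.73 and *Herpud1* by 0.91.

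Levels per kilobase of exon placed *Calr* first and *Trib3* last in all 4 groups, while the order of the other genes differed between the groups. In the contralateral PBS legs the order of means was *Calr* at 87.4 normalized counts per kb, *Atf4* at 81.1, *Hspa5* at 63.0, *Herpud1* at 52.5, *Hsp90b1* at 39.8, *Xbp1* at 35.5, *Dnajb9* at 17.7, *Ddit3* at 7.19, *Atf3* at 6.99 and *Trib3* at 0.811. The ranges over libraries overlapped between the neighbours *Calr* and *Atf4*, between *Ddit3* and *Atf3*, and between each pair of neighbours from *Hspa5* to *Xbp1*. They did not overlap between *Atf4* and *Hspa5*, on either side of *Dnajb9*, or between *Atf3* and *Trib3*. In the HRS legs the order became *Calr* at 159.9, *Hspa5* at 89.6, *Hsp90b1* at 78.9, *Atf4* at 55.0, *Herpud1* at 34.3, *Xbp1* at 33.8, *Atf3* at 13.8, *Dnajb9* at 12.1, *Ddit3* at 6.23 and *Trib3* at 0.862. *Atf4* thus moved from the second place to the fourth. The ranges of all neighbours from *Calr* to *Xbp1* overlapped in the HRS legs, as did those of *Atf3* and *Dnajb9*, while *Xbp1* and *Atf3*, *Dnajb9* and *Ddit3*, and *Ddit3* and *Trib3* stayed apart. The PBS-only legs had the order of the contralateral PBS legs, except that *Atf3* at 6.14 stood above *Ddit3* at 5.84. In the HRS-MBP libraries *Hsp90b1*, at a mean of 101 normalized counts per kb, stood second, next to *Hspa5* at 97.0, and *Xbp1* at 47.5 stood above *Herpud1* at 40.6. Both of these orders rested on m861, with *Hsp90b1* at 127.9 against 96.8 for *Hspa5*, and *Xbp1* at 59.3 against 38.7 for *Herpud1*. In m860 they were reversed, at 74.8 against 97.1 and at 35.6 against 42.5.

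Ratios between these genes within a library do not depend on how libraries were scaled, and 5 such ratios were chosen after the values were seen. The ratio of *Hspa5* to *Atf4* ran from 1.59 to 4.30 in the HRS legs (median 3.31), from 1.27 to 1.56 in the contralateral PBS legs and from 1.41 to 1.56 in the PBS-only legs. The HRS leg of m866, at 1.59, was the lowest of the HRS legs and lay just above the PBS legs. In the HRS-MBP libraries the ratio was 3.56 in m860 and 3.34 in m861. The ratio of *Calr* to *Herpud1* had a median of 6.94 in the HRS legs and 1.90 in the contralateral PBS legs, and its ranges overlapped through m866. The ratio of *Atf3* to *Atf4* was 0.122 to 0.330 in the HRS legs and 0.0638 to 0.101 in the contralateral PBS legs, without overlap. The ratio of *Hsp90b1* to *Dnajb9* was 4.48 to 17.1 in the HRS legs and 3.02 to 4.29 in the contralateral PBS legs, and 9.56 and 15.8 in m860 and m861. The ratio of *Hspa5* to *Xbp1* was 2.62 to 4.11 in the HRS legs, 1.95 to 2.46 in the contralateral PBS legs and 2.45 to 2.60 in the PBS-only legs. The HRS-MBP libraries lay on either side of the PBS-only legs in that ratio, m860 at 3.55 and m861 at 2.13.

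**Figure D3:**
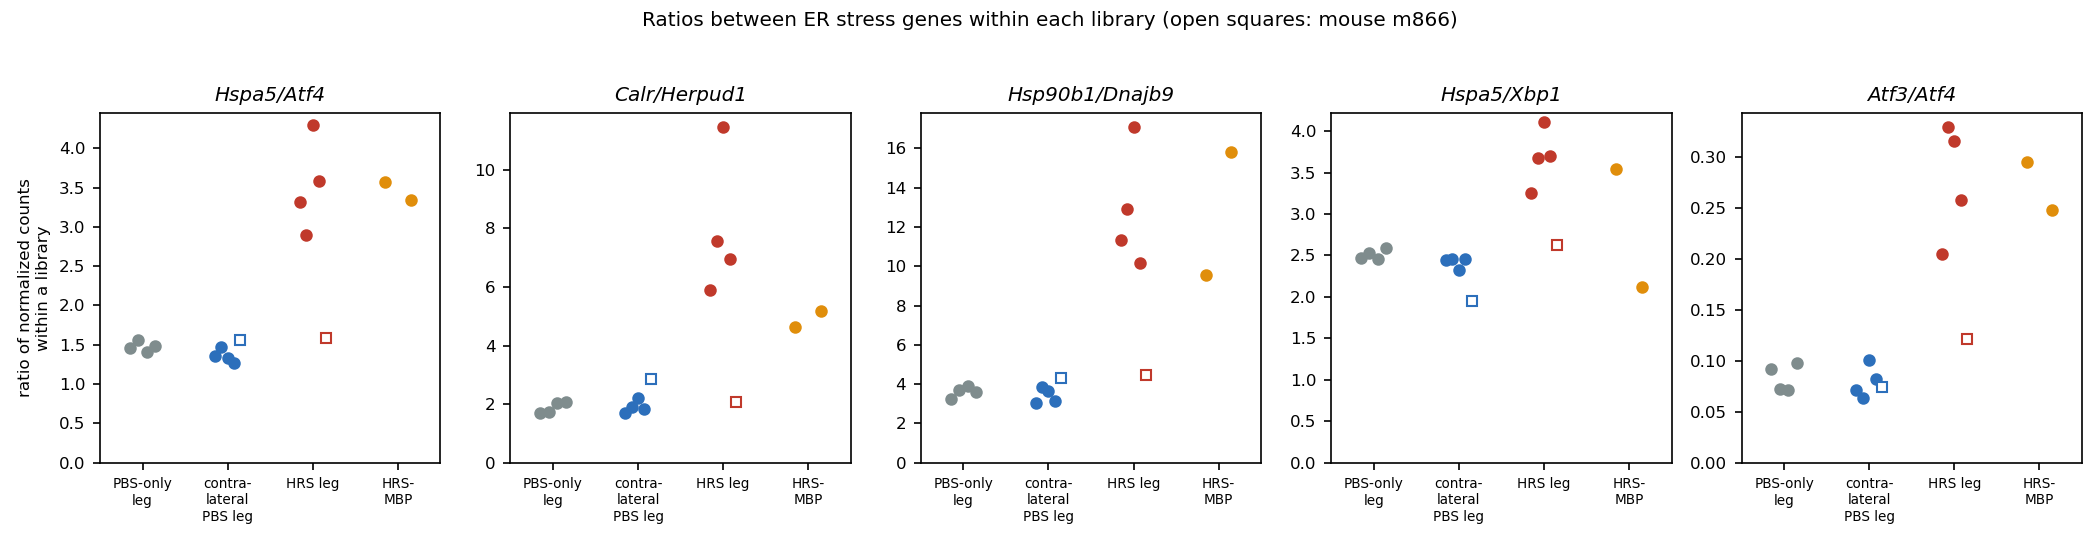
Ratios of normalized counts between ER stress genes within each library (vertical axes, linear from 0) by group; open squares are mouse m866. The ratio of *Hspa5* to *Atf4* is 2.89 or more in 4 HRS legs and 1.56 or less in all PBS legs, with the HRS leg of m866 at 1.59.

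In the comparison of the HRS leg with the PBS-only leg, which shares the HRS legs with the comparison above, 5 of 10 genes rose and 2 of 10 fell, against 38.1% and 22.6% of all tested genes. On the log2 scale *Hspa5* rose by 0.68, *Hsp90b1* by 1.06, *Calr* by 1.002 and *Atf3* by 1.13, with limma adjusted p-values of 0.000258, 0.000270, 0.000169 and 0.000148. Of these, *Hsp90b1*, *Calr* and *Atf3* were called on size as well, 3 of 10 against 18.9% of all genes called higher. *Trib3* rose by 0.88 (adjusted p = 0.0333). Its PBS-only values of 0.566, 1.68, 0.847 and 0.243 overlapped the HRS legs, and the value of 0.243 stood for 2 implied reads. Its call was lost with a pseudocount of 2 (adjusted p = 0.0520), with limma-voom (0.134), with quantile normalization (0.280), with 1 averaged value per PBS-only mouse (0.0956), and without the HRS leg of m863 (0.0545) or m864 (0.0822) or PBS-only mouse m868 (0.242). *Herpud1* fell by 0.65 (adjusted p = 0.0139) and *Dnajb9* by 0.43 (adjusted p = 0.0225). Both calls were lost with 1 averaged value per PBS-only mouse (adjusted p = 0.0680 and 0.0896), with libraries scaled to equal totals (0.0582 and 0.691) and without PBS-only mouse m867 (0.128 and 0.155). That of *Dnajb9* was also lost with only the groups compared (0.0578) and without the HRS leg of m862 (0.0539), m863 (0.0580) or m864 (0.0531) or PBS-only mouse m868 (0.0518). *Atf4* measured 167, 155, 155 and 156 in the PBS-only legs, above 4 of the 5 HRS legs, and its log2 fold change was -0.33 (adjusted p = 0.0737). It passed the test without the HRS leg of m866 (-0.49, adjusted p = 0.000117) and with median-of-ratios scaling (-0.46, adjusted p = 0.0139). It did not pass with quantile normalization (-0.20, adjusted p = 0.117), and with equal totals the sign turned (0.067, adjusted p = 0.489). *Xbp1* at 0.23 (adjusted p = 0.151) and *Ddit3* at 0.10 (adjusted p = 0.506) did not pass. With equal totals both passed as higher, *Xbp1* at 0.62 (adjusted p = 0.00411) and *Ddit3* at 0.48 (adjusted p = 0.0349), and 7 of 10 genes rose and 0 fell, against 55.3% and 11.8% of all tested genes. With quantile normalization *Ddit3* passed as lower (-0.33, adjusted p = 0.0398).

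Between the contralateral PBS leg and the PBS-only leg, 0 of 10 genes changed with limma after adjustment, and 3 had an unadjusted p below 0.05. Limma-voom also found 0 of 10, with 2 at an unadjusted p below 0.05. Of all tested genes, 5.50% had an unadjusted p below 0.05 with limma and 3.86% with limma-voom. After adjustment 0% of all tested genes rose and 0.00609% fell, which was 1 gene. The 3 genes were *Xbp1* at 0.30 (95% interval 0.01 to 0.59), *Ddit3* at 0.29 (0.01 to 0.57) and *Trib3* at 0.76 (0.05 to 1.47) on the log2 scale. That number depended on the setting. It was 0 without the contralateral leg of m862 or m866, with 1 averaged value per PBS-only mouse and with quantile normalization. With only the groups compared it was 5, against 7.12% of all tested genes. The log2 fold changes of all 10 genes were above 0, from 0.03 for *Herpud1* to 0.76 for *Trib3*, with a median of 0.18 against 0.07 over all tested genes. *Xbp1* measured 120.2, 107, 111, 103 and 135 in the contralateral PBS legs and 99.0, 95.4, 89.1 and 89.3 in the PBS-only legs, without overlap. *Hspa5*, *Calr* and *Atf4* were also higher without overlap. The share of all tested genes without overlap was not counted. The PBS-only legs came from 2 mice, so that this comparison rests on few animals.

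**Figure D4:**
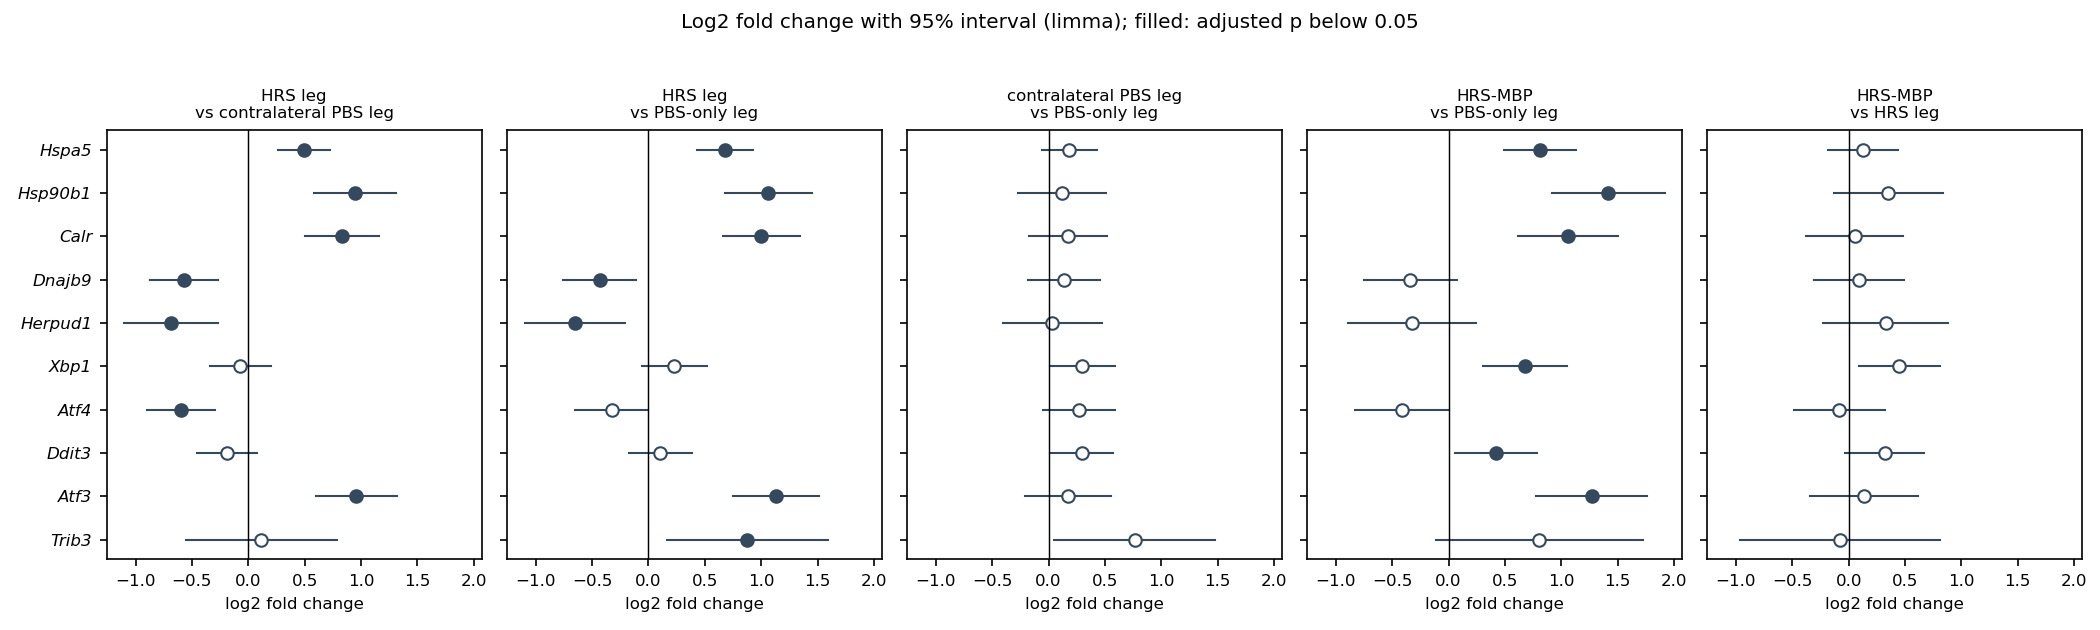
Log2 fold changes of the 10 genes (horizontal axes) in the 5 comparisons of groups, with 95% intervals from limma; filled points have an adjusted p below 0.05. The chaperones and *Atf3* lie above 0 in both comparisons of the HRS leg, and no gene is filled in the comparison of the contralateral with the PBS-only legs or of HRS-MBP with the HRS legs.

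In the HRS-MBP libraries, 6 of 10 genes rose against the PBS-only legs and 0 of 10 fell, whereas 33.2% of all tested genes rose and 23.8% fell. *Hspa5* measured 411 in m860 and 409 in m861, *Hsp90b1* 302 and 516, and *Calr* 461 and 468. All these values lay above every PBS-only leg. In the HRS-MBP libraries the myofibre markers summed to 62295 to 64134, against 137733 to 171609 in the PBS-only legs, the leukocyte markers to 848 to 961 against 17.3 to 41.4, and the macrophage markers to 3803 to 4181 against 85.0 to 187. Their part in the result was not tested. On the log2 scale *Hspa5* rose by 0.81, *Hsp90b1* by 1.42 and *Calr* by 1.06 (limma adjusted p = 0.000495, 0.000205 and 0.000820). *Atf3* measured 34.0 and 30.4 and rose by 1.27 (adjusted p = 0.000445). *Hsp90b1*, *Calr* and *Atf3* were called on size, 3 of 10 against 20.7% of all genes called higher.

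*Xbp1* measured 116 in m860 and 193 in m861, and the latter was the highest value of the gene in any library. It rose by 0.68 against the PBS-only legs (adjusted p = 0.00456). Without m861 the value was 0.31 (adjusted p = 0.163), and without m860 it was 1.04. *Hsp90b1* gave 1.03 without m861 and 1.80 without m860. Of the 6 plasma cell markers, 5 were highest in m861 too: *Igkc* measured 3434 there and 531 in m860, *Jchain* 600.1 and 75.9, *Mzb1* 54.2 and 5.46, *Derl3* 17.3 and 2.26, and *Tnfrsf17* 1.42 and 0.244. The sixth, *Sdc1*, was at 29.3 in m861 and 33.6 in m860, within the range of the HRS legs (8.41 to 52.7). *Igkc* lay between 69.1 and 328 in the HRS legs and at 17.0 or below in every PBS leg. The part of plasma cells in the level of *Xbp1* and *Hsp90b1* was not tested.

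*Ddit3* measured 13.0 and 13.9 in HRS-MBP, above every PBS-only leg, and rose by 0.42 (adjusted p = 0.0448). The call was lost without m860 (adjusted p = 0.114) or m861 (0.193), without PBS-only mouse m867 (0.212), with no filter (0.0617), with only the groups compared (0.0796), with 1 averaged value per PBS-only mouse (0.0678), with median-of-ratios scaling (0.117) and with quantile normalization, where the value was -0.01. *Dnajb9* at 31.6 and 32.6, *Herpud1* at 99.1 and 90.3 and *Atf4* at 115 and 122 lay below every PBS-only leg. Their log2 fold changes of -0.34, -0.33 and -0.41 did not pass the test (adjusted p = 0.147, 0.309 and 0.0841), nor did that of *Trib3*, 0.80 (adjusted p = 0.122). When only the HRS-MBP and PBS-only libraries were fitted, *Dnajb9*, *Herpud1* and *Atf4* did pass (adjusted p = 0.0288, 0.0437 and 0.00599), so that 3 of 10 fell, against 25.6% of all tested genes in that fit. *Atf4* also passed with median-of-ratios scaling (-0.49, adjusted p = 0.0408) and *Dnajb9* with quantile normalization (-0.51, adjusted p = 0.0323). With libraries scaled to equal totals the signs turned, to 0.12 for *Dnajb9*, 0.14 for *Herpud1* and 0.053 for *Atf4*, and none of these values passed.

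Against the HRS legs, 0 of 10 genes changed in HRS-MBP with limma, and 1 had an unadjusted p below 0.05, whereas limma-voom found 0 and 2. Of all tested genes 0.426% rose and 0.134% fell after adjustment, and 14.4% had an unadjusted p below 0.05 with limma and 17.6% with limma-voom, so that the shares among the 10 were near the background. With limma that gene was *Xbp1*, at 0.45 on the log2 scale (95% interval 0.09 to 0.81, adjusted p = 0.250). The intervals were wide with 2 libraries: -0.13 to 0.84 for *Hsp90b1*, -0.18 to 0.44 for *Hspa5* and -0.37 to 0.48 for *Calr*. A gene that did not pass the test here is not shown to be equal in HRS-MBP and HRS legs.

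Other genes of the pathway were taken from 7 lists that do not hold the 10 genes, chosen with earlier results of these data known, and were read in the comparison of the HRS leg with the contralateral PBS leg. Up to 3 further genes of a list were named after their values were seen. Over all tested genes the median log2 fold change was 0.08, and 35.1% rose and 25.9% fell. With libraries scaled to equal totals, 54.6% of all tested genes rose and 12.6% fell, and the counts of the lists under that scaling are to be read against those shares. Of 20 ER chaperones and folding enzymes, 19 rose and 0 fell, with a median of 0.86. *Pdia3*, a disulfide isomerase that works with calreticulin and in MHC class I loading, rose by 1.65 (SE 0.236, adjusted p = 6.31e-05), from 66.8 ± 14.5 to 222 ± 86.7 (SD, n = 5 each, limma). *Sdf2l1*, a partner of BiP, rose by 1.52 (adjusted p = 6.83e-06), from 6.09 to 19.1. *Manf* and *Creld2*, secreted proteins induced by ER stress, rose by 1.17 and 1.19. *Sil1*, a nucleotide exchange factor of BiP, was the member that did not pass, at -0.16 (adjusted p = 0.120).

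Of 15 genes of ER-associated degradation and the translocon, 8 rose and 0 fell, with a median of 0.24, and 14 rose with libraries scaled to equal totals, when the share of all tested genes that rose was also larger. *Edem1* and *Edem2*, which help to extract misfolded glycoproteins, rose by 1.72 and 1.38, and *Sec61a1*, the channel subunit of the translocon, by 1.33. *Derl1*, part of the retrotranslocation complex, did not pass, at -0.07. *Derl3*, which is also a plasma cell marker in another list used here, rose by 0.88 (adjusted p = 0.0472). In HRS-MBP *Derl3* was 2.50 higher on the log2 scale than in the HRS legs (adjusted p = 0.0274), the sole gene of the pathway lists that passed in that comparison. The value rested on m861: it was 1.16 without that library (adjusted p = 0.999, the call lost) and 3.84 without m860.

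Of 14 stress sensors and genes of the eIF2alpha arm, 8 rose and 2 fell, with a median of 0.28, and with equal totals 11 rose and 0 fell. The kinases of eIF2alpha did not share a direction. *Eif2ak2* (PKR, an interferon-induced kinase) rose by 1.59 (adjusted p = 1.93e-06), *Eif2ak3* (PERK) by 1.03 (0.00119) and *Eif2ak4* (GCN2) by 0.28 (0.0319), whereas *Eif2ak1* (HRI) fell by 0.55 (0.00441). *Ppp1r15a* (GADD34), the stress-induced subunit of the eIF2alpha phosphatase, fell by 0.54 (0.00664), and its constitutive counterpart *Ppp1r15b* rose by 0.77 (0.000688). *Ern1* (IRE1) rose by 0.44.

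Of 20 tested targets of ATF4 and CHOP, 12 rose and 4 fell, with a median of 0.56, and 2 fell with libraries scaled to equal totals, while *Fgf21* was too low to be tested. *Slc7a11*, the cystine transporter, rose by 2.96 (adjusted p = 0.000179), from 0.170 to 6.55. *Gdf15*, a stress cytokine, rose by 2.09 (0.000293), and *Mthfd2*, of mitochondrial one-carbon metabolism, by 1.67 (3.73e-05). The glutathione-degrading *Chac1* fell by 1.52 (0.00873), from 31.5 ± 13.2 to 13.6 ± 13.6 (SD, n = 5 each, limma), and *Stc2*, a secreted glycoprotein, by 1.37 (0.000679). *Asns* at 0.03 and *Phgdh* at 0.08, both enzymes of amino acid synthesis, did not pass. Some of the genes that rose, *Slc7a11* among them, are also expressed by activated macrophages.

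Stress genes of other compartments were read for contrast. Of 10 cytosolic heat shock genes 2 rose and 1 fell, with a median of -0.04, and 6 rose and 0 fell with equal totals, near the 54.6% and 12.6% of all tested genes. *Dnajb1* rose by 0.91, *Hsp90aa1* by 0.79, and the muscle co-chaperone *Bag3* fell by 0.44. Of 7 mitochondrial chaperones and proteases 0 rose and 5 fell, with a median of -0.66, and *Hspa9*, the mitochondrial Hsp70, fell by 0.85 (limma adjusted p = 0.00168), from 476 ± 38.3 to 277 ± 108 (SD, n = 5 each), and its co-chaperone *Dnaja3* by 0.77. Of 7 immediate early genes, to which *Atf3* also belongs by its kinetics, 5 rose and 0 fell, with a median of 0.95, and *Junb* rose by 2.09 and *Fosb* by 1.34. Without the HRS leg of m866, 19 of 20 ER chaperones, 6 of 15 degradation and translocon genes and 12 of 20 ATF4 and CHOP targets rose, and 7 of 7 mitochondrial genes fell. In that fit 6274 of 16414 tested genes rose and 4955 fell.

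**Figure D5:**
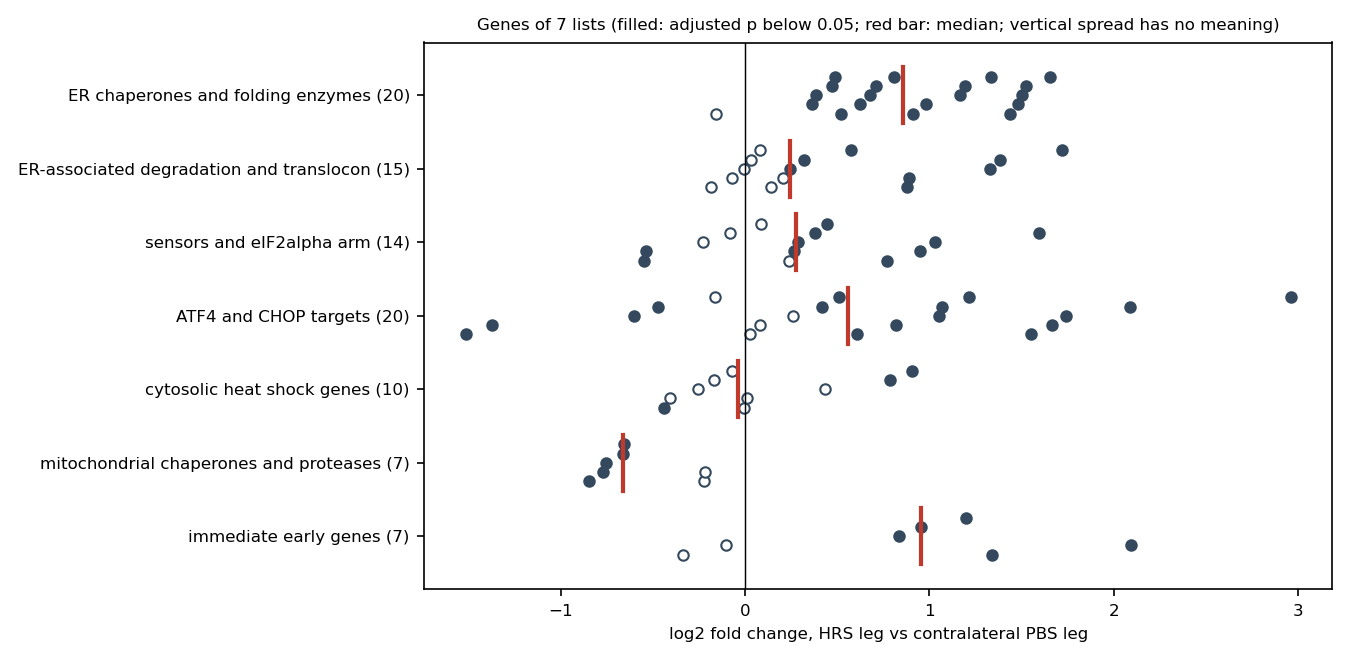
Log2 fold change between the HRS leg and the contralateral PBS leg (horizontal axis) for the tested genes of 7 lists, with the number tested in brackets; filled points have an adjusted p below 0.05 and the red bar is the median of a list. The ER chaperones lie almost wholly above 0 (19 of 20 rose) and the mitochondrial chaperones below 0 (5 of 7 fell).

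The genes with the most similar pattern to each of the 10 were found by the root mean square difference of centred log2 values over the 16 libraries. The closest were *Pum3* for *Hspa5* (0.0803), *Zc3h7a* for *Hsp90b1* (0.117), *Ppp4c* for *Calr* (0.0576), *Gart* for *Dnajb9* (0.0735), *Tmub1* for *Herpud1* (0.0969), *Clec1a* for *Xbp1* (0.137), *Ubl7* for *Atf4* (0.0813), *Cwf19l1* for *Ddit3* (0.155), *Ecscr* for *Atf3* (0.206) and *D930048N14Rik* for *Trib3* (0.353). *Ubl7* was also the second closest to *Dnajb9*, at 0.0745. None of the closest genes was itself one of the 10. Some of the 10 were still close to one another: *Dnajb9* ranked 6 for *Atf4* and *Atf4* ranked 12 for *Dnajb9* (0.103). *Calr* ranked 17 for *Atf3* (0.261) and *Dnajb9* ranked 30 for *Herpud1* (0.157). Others were not, as the nearest of the 10 to *Hspa5* was *Calr*, at rank 1017 (0.209).

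The direction of the falls has to be read with the scaling. With every library scaled to equal totals, the median over all tested genes moved from 0.08 to 0.45 in the comparison of the HRS leg with the contralateral PBS leg. Under that scaling *Hspa5*, *Hsp90b1*, *Calr* and *Atf3* rose by 0.91, 1.36, 1.247 and 1.37, *Herpud1* still fell by 0.27 (adjusted p = 0.0385), and *Dnajb9* and *Atf4* did not pass. Scaling to equal totals shifts all genes of a library alike, so that values relative to the median of all genes stay close by construction (*Atf4* at -0.63, and -0.67 as deposited). With quantile normalization, which does not shift genes alike, *Atf4* was at -0.24 and *Hspa5* at 1.01 relative to that median, against -0.67 and 0.42 as deposited. Which scaling is nearer to RNA per cell was not tested.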

How the data were processed

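Hamstring RNA was selected by poly(A), sequenced with a directional kit on 3 Illumina instrument types that the labels do not assign to libraries, and aligned by the authors, whose processing notes name STAR 2.7.8a, limma and the builds mm39 and GRCm39. The authors deposited 1 table of normalized counts, a signal that is never negative, for 26382 genes. Its scaling and use of strand are not given in the sources used here. Gene coordinates in the table were those of GRCm38: 98.98% of 25652 genes matched by symbol to GENCODE M21 had the same start and end.

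The 10 genes and all lists were chosen with earlier results of these data known. Groups came from the treatment, mouse and side in the labels. Genes with a mean of at least 0.5 (16414) were tested as log2(value + 0.5) in 1 fit of 4 groups with limma 3.58.1 (eBayes with trend, R 4.3.3), and fold changes are on that scale, which understates low genes. A gene had changed at a Benjamini-Hochberg adjusted p below 0.05 and was called at an absolute log2 fold change above 1 as well. The step was tested on simulated data. Pairs of legs were compared by exact sign flips. The legs of a PBS-only mouse are not separate animals, so p-values against that group are too small to an unknown degree. Depth was implied from the step between low values, and the limit for a count of 0 is 3 reads.

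The same mouse number on 2 legs is the same animal, by the mouse labels. The correlation across genes between the paired legs, each taken as its difference from the group mean, was 0.12, 0.16, 0.097, -0.026 and -0.37 in m862 to m866. Other settings tried were pseudocounts, filters, scalings, variance models, limma-voom on implied reads, blocks and single libraries left out. Named genes were the 10, the 2 largest rises and falls of each list that passed the test, up to 3 more of a list chosen after their values were seen, cell type markers, and the gene closest in pattern to each. Motifs were searched in RefSeq promoter windows (GRCm38.p6), of which all 10 genes had 1. Instrument and treatment cannot be told apart. Human libraries and single cells were not analysed here.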

Additional observations from a re-analysis of the deposited data

Results flagged for a closer look

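In 30 groups of 4 or 5 values (the 10 genes in the HRS, contralateral PBS and PBS-only legs), 5 held a library far from the others by Dixon's criterion, where chance gives about 1 in 20 groups. Of these, 3 were the HRS leg of m866: *Dnajb9* at 46.5 normalized counts against 25.7 to 30.0 in the other HRS legs, *Herpud1* at 141 against 55.5 to 74.7, and *Atf4* at 199 against 109 to 116. That leg had the highest summed myofibre markers of the HRS legs, 156847 against 38601 to 94517, the lowest summed leukocyte markers, 217 against 436 to 983, and mitochondrial transcripts at 11.1% against 3.41% to 6.29%. The part of cell composition in those values was not tested.

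*Hspa5* measured 294 in the contralateral PBS leg of m862 against 254 to 264 in the other contralateral legs. *Atf4* measured 167 in the left leg of PBS-only mouse m867 against 155 to 156 in the other PBS-only legs.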

How the results depend on the processing

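The rises of *Hspa5*, *Hsp90b1*, *Calr* and *Atf3* in both comparisons of the HRS leg kept direction and an adjusted p below 0.05 in every alternative fit run, although the condition on size (an absolute log2 fold change above 1) was met or not by setting, as given below. The falls of *Dnajb9*, *Herpud1* and *Atf4* kept their direction against the contralateral legs and lost or kept the test as given above. With the mouse as a replicate block in the 10 paired libraries, 6 of 10 genes passed (7220 genes of all, against 10019), and *Herpud1* (-0.69, adjusted p = 0.0615) was the 1 call of the 10 that it changed. Limits are the PBS-only group of 2 mice, the HRS-MBP group of 2 libraries, unknown scaling and strand use, and 2 to 59 implied reads of *Trib3* in the PBS-only legs. The cause of the changes below was not tested.

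In HRS against contralateral legs, the number called on size among the 10 went from 0 to 3 with equal totals, 2 with quantile normalization, 1 with limma-voom and 0 to 2 when single libraries were left out (2 without the HRS leg of m866). Of all 16414 tested genes, the 2781 called higher and 1029 called lower became 4172 and 322 with equal totals, and 2093 and 1632 with quantile normalization. They became 3212 and 1371 with limma-voom, and 3257 and 1598 without the HRS leg of m866. Signs turned for *Xbp1* (0.35 with equal totals, 0.067 with quantile normalization), *Ddit3* (0.21 with equal totals) and *Trib3* (-0.28 with quantile normalization, -0.024 to 0.33 with single libraries left out). Against PBS-only legs, 4 changed with averaged legs, 5 were called with equal totals, 0 with median-of-ratios scaling and 1 to 3 with single libraries left out (1 without the HRS leg of m864). Of all 16414 tested genes, 7577 changed with averaged legs. With equal totals 4536 were called higher and 372 lower. With median-of-ratios scaling these counts were 2758 and 1319, and without the HRS leg of m864 they were 2801 and 586. Signs turned there for *Atf4* (0.067 with equal totals) and *Ddit3* (-0.029 with median-of-ratios scaling, -0.33 with quantile normalization, -0.021 to 0.23 with single libraries left out).

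Between contralateral and PBS-only legs, the 1 gene of all that changed became 0 with the smaller pseudocount tried, no filter, equal totals, limma-voom, only the groups compared or averaged legs, 2 with quantile normalization, and 0 to 2 with single libraries left out. *Herpud1* turned to -0.027 with median-of-ratios scaling and -0.018 with quantile normalization (-0.086 to 0.16 with single libraries left out). In HRS-MBP against PBS-only legs, 5 were called with equal totals, and 3 fell with only the groups compared (1 with median-of-ratios scaling and 1 with quantile normalization). Of all 16414 tested genes, 5028 were called higher and 626 lower with equal totals. The shares of all tested genes that fell were 25.6% with only the groups compared, 27.9% with median-of-ratios scaling and 38.7% with quantile normalization. With equal totals *Dnajb9* gave 0.12, *Herpud1* 0.14 and *Atf4* 0.053. *Ddit3* gave -0.010 with quantile normalization, and 6131 to 8230 genes of all changed with single libraries left out, against 9362.

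In HRS-MBP against HRS legs, 92 genes of all became 187 without a filter, 45 with a filter at 2, 139 with quantile normalization, 157 with limma-voom, 4 with only the groups compared and 25 to 1100 with single libraries left out. Of the 10, 0 to 1 changed (*Xbp1*, 0.82, without m860), and ranges were -0.034 to 0.74 for *Hsp90b1*, -0.097 to 0.18 for *Calr*, -0.14 to 0.080 for *Atf4* and -0.58 to 0.42 for *Trib3*. Within mice, 4 to 7 genes went 1 way in every mouse when 1 was left out (7 without m866), and 3 did so with median-of-ratios scaling (3 higher) and with equal totals (2 higher and 1 lower). The share of all tested genes that went 1 way with 1 mouse left out was not counted, so these numbers have no background beside them.

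For the lists, chosen after seeing the data, genes rising with equal totals were 14 for degradation and translocon and 6 for cytosolic heat shock, and genes falling were 0 for sensors, 2 for ATF4 and CHOP targets and 0 for cytosolic heat shock. With median-of-ratios scaling 1 ER chaperone and 2 cytosolic genes fell. With quantile normalization 1 ER chaperone, 1 degradation and translocon gene and 0 cytosolic genes fell and 5 sensors rose. Without the HRS leg of m866, 2 cytosolic and 1 immediate early gene fell. The values of *Derl3* without m860 or m861 were also added after seeing the data.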

Other observations

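Some of the pathway lists were also read against the PBS-only legs. In HRS-MBP, 18 of 20 ER chaperones and folding enzymes rose and 0 fell (limma, adjusted p below 0.05), where 33.2% of all tested genes rose and 23.8% fell, with a median log2 fold change of 1.32 against 0.11 over all tested genes, and 6 of 7 mitochondrial chaperones and proteases fell. *Creld2* rose by 2.36 and *Sdf2l1* by 2.36, and *Manf* rose by 1.87. *Derl3*, of ER-associated degradation, rose by 3.57 (limma adjusted p = 4.47e-05), and by 2.23 without m861 and 4.92 without m860. Of the other plasma cell markers, *Igkc*, *Jchain* and *Mzb1* were highest in those 2 libraries, and *Sdc1* and *Tnfrsf17* were not. *Tnfrsf17* was highest in m861, at 1.42. In m860 it was at 0.244, below the HRS leg of m865 (0.267) and the contralateral PBS leg of m864 (0.416). In the HRS legs, 19 of 20 ER chaperones rose against the PBS-only legs, with a median of 1.02, and 5 of 7 mitochondrial genes fell, where 38.1% of all tested genes rose and 22.6% fell. Of the cytosolic heat shock genes 2 of 10 rose and 0 fell, and of the immediate early genes 3 of 7 rose and 0 fell, shares below or near those of all tested genes. Between contralateral and PBS-only legs, 0 of 20 ER chaperones changed with limma after adjustment, with a median of 0.21 against 0.07 over all tested genes.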
